A study of Mus musculus with 18 samples.

Results

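RNA levels of 10 genes that are commonly used to mark macrophages were examined in the rostral whisker pad of mice after the facial nerve was cut on 1 side of the face. The genes were Adgre1, Cd68, Csf1r, Cd163, Mrc1, Itgam, Lyz2, Fcgr1, C1qa and C1qb, 10 of the 35150 genes in the table and were chosen by name as markers. The level of each gene was the sum of the TPM (the abundance of a transcript per unit of its length, scaled to the library) of its transcripts. The tissue was a punch biopsy holding skin together with muscle, taken from both sides of 9 mice, 3 mice at each of days 1, 3 and 7 after surgery, which gave 18 samples. In the denervated group (right side) the buccal and superior marginal branches were cut. The left side of the same mice was the sham group, with an incision in the skin alone. Every sham sample therefore came from an animal with a lesion on the other side, both sides carried a skin wound, and the denervated side was always the right, so side and lesion cannot be told apart. The labels give no genotype, strain or age. The study's methods state the age of the animals, which were adults of both sexes. Mice are numbered 1 to 3 within a day.

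Macrophages are phagocytes that live in skin, muscle and nerve and that are also replenished from blood monocytes. After a nerve is cut, macrophages are known to gather in the degenerating stump, where they clear myelin and axon debris, and muscle that has lost its nerve also holds macrophages that clear damaged fibers. Csf1r is the receptor for the growth factors that keep these cells alive. Adgre1 encodes the F4/80 antigen, Itgam encodes the integrin CD11b that is shared with monocytes and neutrophils, and Fcgr1 encodes the high-affinity receptor for IgG. Cd68 is a glycoprotein of the lysosome, Lyz2 is a lysozyme also made by neutrophils, and C1qa and C1qb encode chains of the complement component C1q. Cd163, the scavenger receptor for haptoglobin-hemoglobin, and Mrc1, the mannose receptor, mark resident and repair-associated macrophages.

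The samples held the tissues that their label names. The muscle marker genes summed to 5618 to 33924 TPM and the keratinocyte marker genes to 4611 to 9631 TPM. Mouse 1 of day 1 stood apart from the rest. Its muscle sum was 5618 TPM on the sham side and 8494 TPM on the denervated side, against 16117 TPM or more in the other 16 samples, and 9 of the 10 macrophage markers had their lowest value of all samples on its sham side. In a biopsy, more macrophages and more RNA of these genes per macrophage cannot be told apart. All 10 markers had TPM above 0 in each of the 18 samples.

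The order of the levels was led by Lyz2. Its TPM had a lowest value of 35.5, a median of 150.0 and a highest value of 508 over the 18 samples. C1qb (median 54.5 TPM), C1qa (48.6 TPM) and Cd68 (28.5 TPM) came next, followed by Mrc1 (13.3 TPM), Csf1r (13 TPM) and Cd163 (8.15 TPM). Adgre1 (2.49 TPM), Itgam (2.40 TPM) and Fcgr1 (1.03 TPM) were the lowest. Of the 9 steps in this order, 4 held in all 18 samples. Lyz2 was above C1qb, Cd68 above Mrc1, Cd163 above Adgre1 and Itgam above Fcgr1 in every sample. Mrc1 was above Csf1r in 10 of 18 samples and Adgre1 above Itgam in 12 of 18, so these neighbors were not separated beyond their spread. The ratio of the highest to the lowest sample ran from 5.14 for Csf1r to 17.4 for Adgre1.

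**Figure D1:**
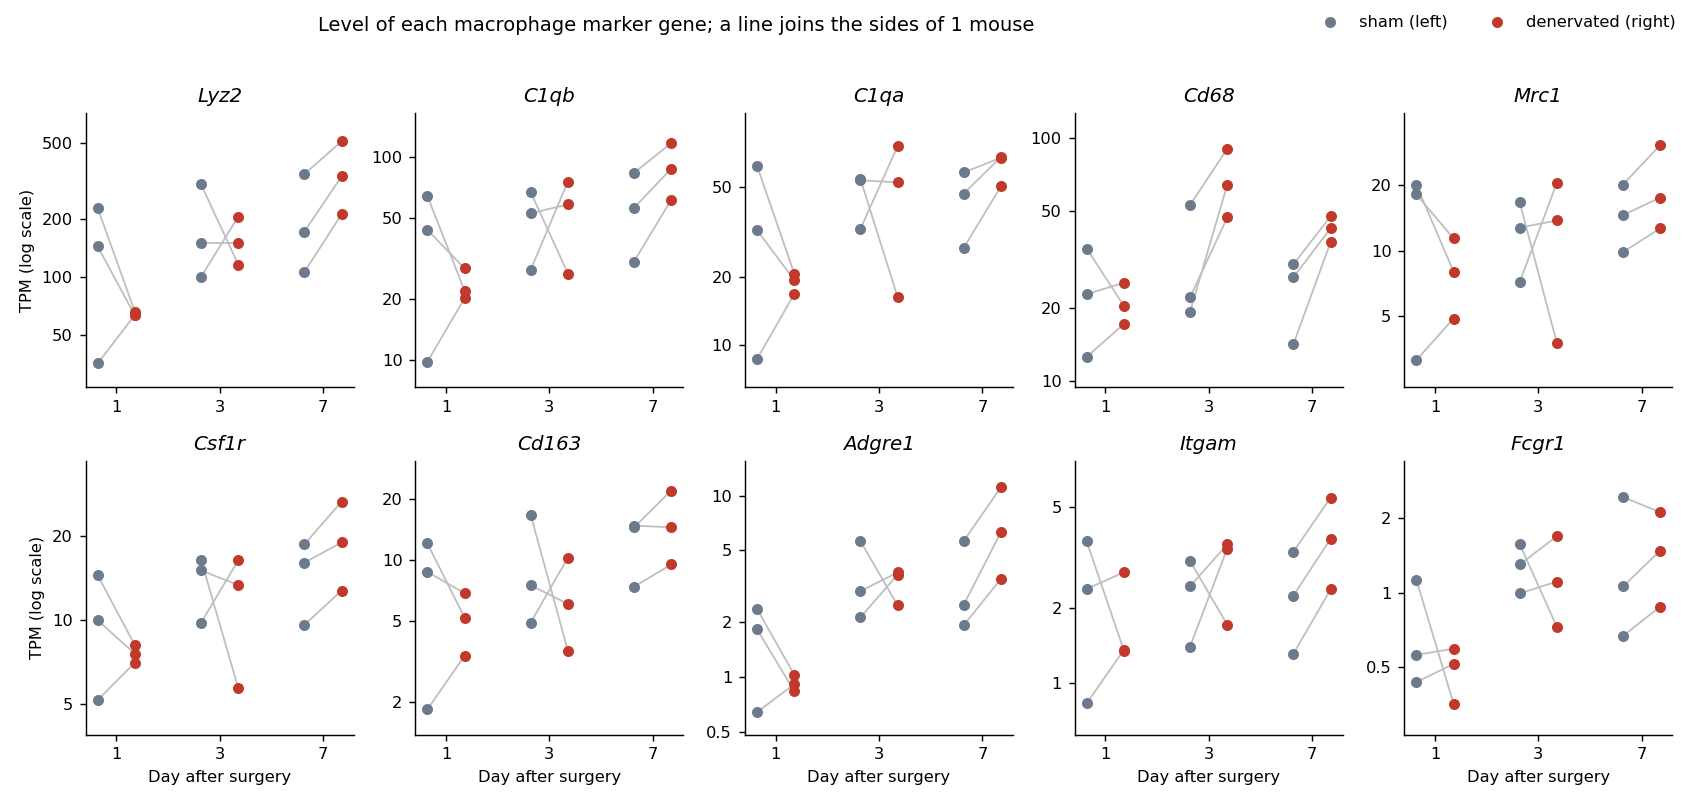
Level of each macrophage marker in TPM on a log axis, by day after surgery, with 1 point per sample (gray, sham; red, denervated) and a line that joins the sides of 1 mouse. At day 1 and day 3 the lines of most genes cross, and at day 7 most lines run upward from sham to denervated. Cd68 also runs upward in all 3 mice of day 3.

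For 3 of the genes much of the summed level came from transcripts that are not annotated as coding for protein. In Mrc1 a retained-intron transcript of 2069 bases carried 75.8% of the gene's mean TPM, and coding transcripts carried 11.5% to 38.1% of it in single samples. In Cd163 a retained-intron transcript of 2779 bases carried 63.6%. In Cd68 the main coding transcript carried 54.9% and a processed transcript of 612 bases carried 44.1%. With coding transcripts alone the median over the 18 samples was 2.68 TPM for Mrc1, 2.98 TPM for Cd163 and 15.8 TPM for Cd68, which put Mrc1 below Csf1r and Cd163. Lyz2, C1qa and C1qb each have 1 transcript in the table, and coding transcripts made up all of Adgre1 and Csf1r. Mrc1 overlaps Mir511, Itgam overlaps Gm49368, and Csf1r overlaps Mir6983 and Hmgxb3. The library kit did not mark strand, so reads of overlapping genes could be shared.

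**Figure D2:**
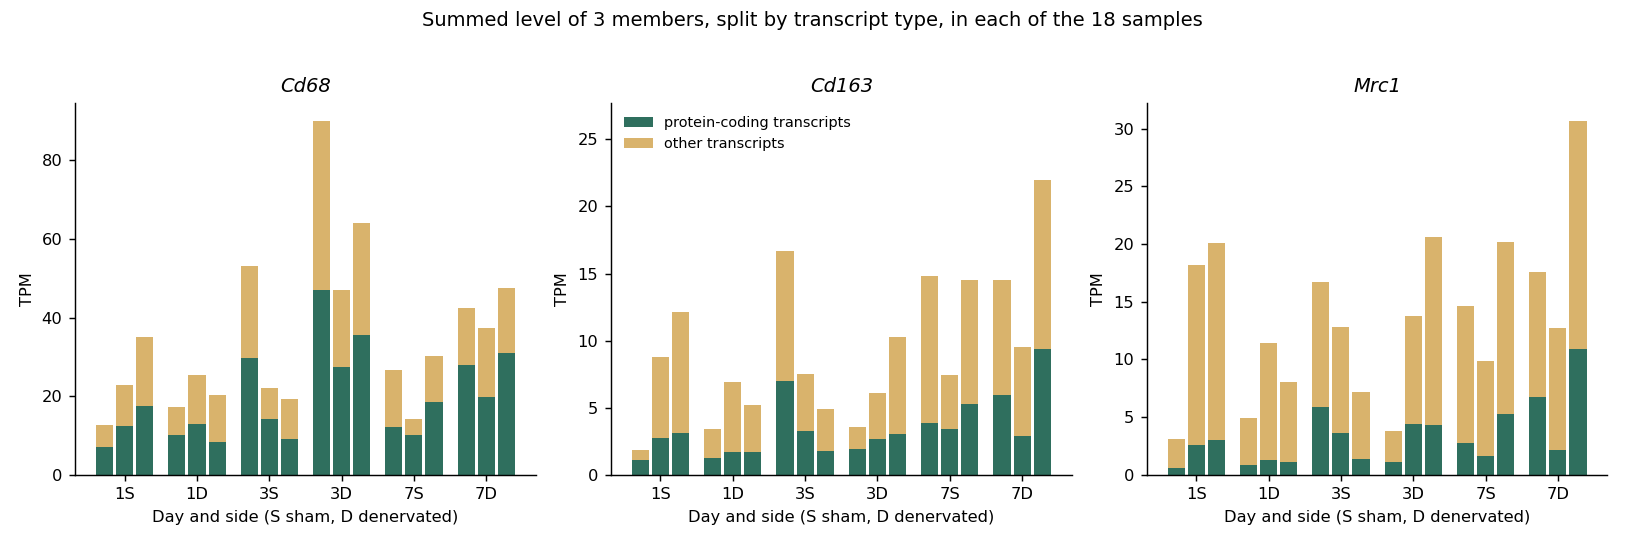
Summed TPM of Cd68, Cd163 and Mrc1 in each of the 18 samples (bars, grouped by day and side), split into protein-coding transcripts (green) and other transcripts (tan). The tan part is the larger in most samples of Cd163 and in all samples of Mrc1.

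The first question was whether the markers differed between the denervated and the sham side over all days combined. Cd68 showed the widest difference, and the estimates of the rest of the genes lay near 0 with wide intervals. Cd68 was higher on the denervated side in 8 of 9 mice, by 0.67 (SE 0.26) on the log2 scale of TPM + 0.5, on which all fold changes here are given. Its adjusted p was 0.21 by limma (unadjusted p = 0.018) and 0.24 by the exact two-sided sign-flip permutation test over the 9 mice (unadjusted p = 0.031, where 0.0039 is the smallest value that 9 mice allow). Across the 18 alternative settings of the limma fit the adjusted p of Cd68 ran from 0.068 to 0.43, so the difference was not past the threshold of 0.05 in any of them. Itgam had a fold change of 0.25 (SE 0.25), and the other 8 genes lay between -0.13 for Cd163 and 0.15 for Adgre1. Their 95% intervals were as wide as -0.85 to 0.71, for Mrc1. These estimates average over days that could differ in sign, as for Lyz2, with -0.71 at day 1 and 0.84 at day 7. None of the 10 markers passed the limma test over all days. Among all 14757 genes tested, 457 passed, or 3.1%, and 2163 had an unadjusted p under 0.05. By the sign-flip test no gene passed, 0 of 14757 or 0.0%, while 2398 had an unadjusted p under 0.05, with Cd68 as the single marker among them.

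At day 1 most markers had lower mean levels on the denervated side, with wide spread among the sham samples. Lyz2 measured 63.4, 63.0 and 65.8 TPM on the denervated side of mice 1 to 3 and 35.5, 144 and 228 TPM on the sham side. The denervated samples were thus nearly equal while the sham samples lay on both sides of them. C1qb measured 20.2, 28.3 and 22.0 TPM on the denervated side and 9.83, 43.8 and 64.3 TPM on the sham side. C1qa followed the same pattern, with 16.8, 19.4 and 20.7 TPM on the denervated side and 8.65, 32.2 and 62.1 TPM on the sham side. In these genes mouse 1 was higher on the denervated side and mice 2 and 3 were higher on the sham side, so the groups overlapped. The SD was larger on the sham side than on the denervated side in 10 of 10 markers at day 1, in 3 of 10 at day 3 and in 3 of 10 at day 7. The share of all genes with this pattern was not counted. Wide sham values at day 1 were not particular to the markers. Muscle marker sums ran from 5618 to 28316 TPM on the sham side and 8494 to 17469 TPM on the denervated side. Endothelial sums ran from 43.9 to 95.3 TPM against 60.4 to 67.3 TPM. Neutrophil sums had the wider range on the denervated side.

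At day 1 Csf1r measured 7.01, 7.54 and 8.09 TPM on the denervated side and 5.15, 9.93 and 14.4 TPM on the sham side. Adgre1 measured 0.912, 0.836 and 1.03 TPM on the denervated side and 0.640, 1.83 and 2.37 TPM on the sham side. For Csf1r and Adgre1 the denervated side was higher in mouse 1 and lower in mice 2 and 3. Cd68 measured 17.2, 25.4 and 20.4 TPM on the denervated side and 12.6, 22.8 and 35.1 TPM on the sham side. Itgam (1.36, 2.76 and 1.35 TPM against 0.834, 2.37 and 3.66 TPM) and Fcgr1 (0.516, 0.595 and 0.357 TPM against 0.437, 0.562 and 1.13 TPM) were, like Cd68, higher on the denervated side in mice 1 and 2 and lower in mouse 3. The fold change of Cd68 at day 1 was -0.06 (SE 0.37), with a 95% interval of -0.95 to 0.82. Fold changes of the 9 markers that passed the filter on low values ran from -0.71 (SE 0.64) for Lyz2 to -0.06 for Cd68, with a median of -0.38 beside 0.01 over all genes tested. Fcgr1 was under the filter at day 1. None of the 9 passed the test, as none of all 14776 genes did (0 genes, 0.0%, with 634 at an unadjusted p under 0.05). The interval of Lyz2 ran from -2.27 to 0.85 and that of C1qb from -1.98 to 1.21, so differences of 2-fold in either direction were within the error for C1qb.

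At day 3 Cd68 was higher on the denervated side in every mouse, and the other markers went in different directions in different mice. Cd68 measured 90.1, 47.1 and 64.1 TPM on the denervated side of mice 1 to 3 and 53.0, 22.1 and 19.3 TPM on the sham side. The highest sham sample lay above the lowest denervated sample, so the groups overlapped, but each mouse differed by 1.70-fold or more. Its fold change was 1.18 (SE 0.42), with an adjusted p of 0.26 by limma and of 0.076 when mouse was a block. Cd68 was the 1 marker of 10 that was higher in all 3 mice at day 3, a pattern that 20.6% of all genes tested showed.

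The remaining markers at day 3 were split by mouse. Lyz2 measured 116, 150 and 206 TPM on the denervated side and 303, 150 and 100 TPM on the sham side. C1qb measured 26.7, 58.4 and 75.6 TPM on the denervated side and 67.0, 52.8 and 27.9 TPM on the sham side. Mrc1 measured 3.76, 13.8 and 20.6 TPM on the denervated side and 16.7, 12.8 and 7.17 TPM on the sham side. In all of these the denervated side was lower in mouse 1 and higher in mouse 3, and mouse 2 lay near equality. Adgre1 (2.48, 3.77 and 3.66 TPM against 5.62, 2.97 and 2.13 TPM) and Csf1r (5.68, 13.3 and 16.3 TPM against 16.4, 15 and 9.75 TPM) showed the same order. Fold changes of the 9 markers other than Cd68 ran from -0.45 (SE 0.51) for Cd163 to 0.28 (SE 0.34) for Itgam, and the median of all 10 was -0.12 beside -0.01 over all genes. None of the 10 passed the limma test at day 3, against 217 of all 14943 genes, or 1.45%, and 2196 genes had an unadjusted p under 0.05, Cd68 among them. Without mouse 1 of day 3 the fold change turned positive for all 7 markers that had been negative, with values of 0.19 for Fcgr1 to 0.78 for Mrc1.

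At day 7 the markers were higher on the denervated side in nearly every mouse, and for 9 of the 10 the groups still overlapped. Adgre1 measured 6.29, 3.47 and 11.1 TPM on the denervated side of mice 1 to 3 and 2.5, 1.93 and 5.62 TPM on the sham side. Lyz2 measured 334, 212 and 508 TPM on the denervated side and 172, 106 and 343 TPM on the sham side. Both genes were higher on the denervated side within each mouse, while the groups overlapped since mouse 3 was high and mouse 2 low on both sides. C1qb measured 87.5, 61.6 and 117 TPM on the denervated side and 56.2, 30.6 and 83.4 TPM on the sham side. C1qa measured 68.0, 50.4 and 67.5 TPM against 46.8, 26.9 and 58.1 TPM. Cd68 measured 42.5, 37.3 and 47.6 TPM on the denervated side and 26.7, 14.2 and 30.2 TPM on the sham side, with no overlap of the groups. It was the 1 marker of 10 without overlap at day 7, a pattern in the same direction that 10.6% of all genes tested showed.

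At day 7 Csf1r measured 18.9, 12.7 and 26.5 TPM on the denervated side and 16, 9.57 and 18.6 TPM on the sham side. Itgam measured 3.75, 2.36 and 5.46 TPM on the denervated side and 2.23, 1.31 and 3.33 TPM on the sham side, and its within-mouse differences of 0.64, 0.66 and 0.64 were the most even of the markers. Mrc1 measured 17.6, 12.7 and 30.7 TPM against 14.6, 9.87 and 20.2 TPM. Cd163 (14.5, 9.53 and 22.0 TPM against 14.8, 7.41 and 14.5 TPM) and Fcgr1 (1.48, 0.880 and 2.11 TPM against 1.06, 0.670 and 2.43 TPM) were each higher in 2 of 3 mice. The remaining 8 of the 10 markers were higher on the denervated side in all 3 mice, beside 24.9% of all genes tested with that pattern. This count is a description, since the 10 genes shared the same 3 mice and moved together across samples.

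Fold changes at day 7 were 0.94 (SE 0.48) for Adgre1, 0.89 (SE 0.28) for Cd68, 0.84 (SE 0.48) for Lyz2, 0.71 (SE 0.39) for C1qb and 0.65 (SE 0.37) for Itgam. C1qa (0.55), Mrc1 (0.40), Csf1r (0.37), Cd163 (0.30) and Fcgr1 (0.14) were smaller. The median of the 10 was 0.60 beside 0.04 over all genes. None of the 10 markers passed the limma test at day 7, where 230 of all 15081 genes, or 1.53%, did. This fit did not pair the sides of a mouse. In it 1848 genes reached an unadjusted p under 0.05, with Cd68 as the single marker among them. For Cd68 the unadjusted limma p was 0.016 and the adjusted p was 0.26. With the mouse as a block, which compares the sides within each animal, 1 of the 10 passed at day 7. This was Lyz2, with an adjusted p of 0.037, followed by Adgre1 at 0.059, C1qb at 0.070 and Cd68 at 0.078, and 328 genes of the whole table passed in that fit.

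**Figure D3:**
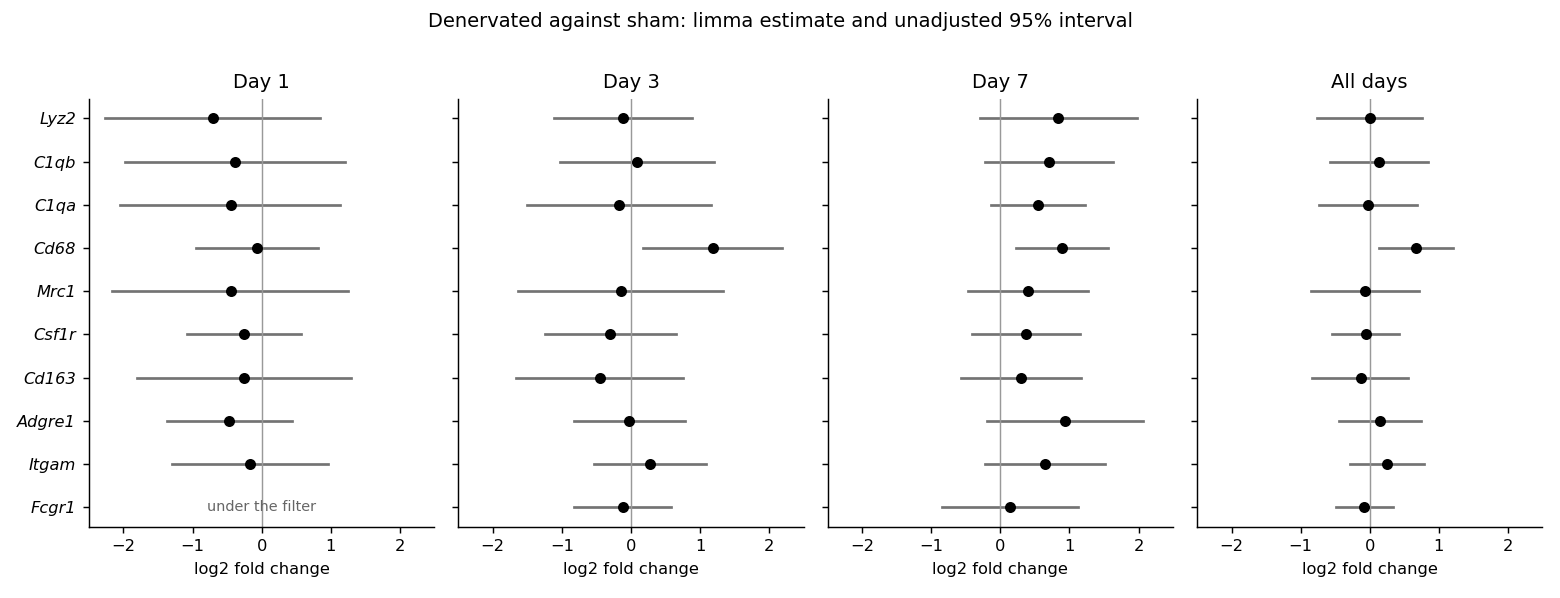
Fold change of each macrophage marker, denervated against sham, on the log2 scale of TPM + 0.5 for each day and for all days (points), with the unadjusted 95% interval of the limma fit (bars). The intervals of Cd68 at day 3, at day 7 and over all days exclude 0 before adjustment over all genes, and those of the other markers include 0. These fits took the sides of a mouse as separate samples and did not pair them. Fcgr1 was under the filter at day 1.

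Levels of marker genes of other cell types were set beside these values, and their part in them was not tested. The 10 neutrophil markers, whose sum is mostly S100a8 (mean 602 TPM) and S100a9 (158 TPM), summed to 1395 to 2743 TPM on the denervated side and 76.6 to 289 TPM on the sham side at day 7, 443 to 1517 TPM against 97.6 to 435 TPM at day 3, and 182 to 2040 TPM against 90.4 to 1062 TPM at day 1. S100a8, the calprotectin subunit of neutrophils that wounded epidermis can also make, was higher on the denervated side in 9 of 9 mice, with a fold change of 3.62 (adjusted p = 0.0058 by limma). S100a9 had a fold change of 3.42 at day 7 (SE 1.53, adjusted p = 0.44 by limma). The remaining genes of this list tested at day 7 were Retnlg (1.19, SE 1.03), Csf3r (0.56), Cxcr2 (0.41) and Il1r2 (0.37), with adjusted p of 0.68 to 0.71 by limma. Il1r2 measured 31.8 to 96.1 TPM over the samples, against 0.427 to 7.99 TPM for Csf3r. Ly6g, a defining neutrophil antigen, did not exceed 1.11 TPM in any sample. Lyz2 and Itgam are expressed by neutrophils as well. The fibroblast markers had a summed level of 1045 to 1933 TPM on the denervated side and 865 to 1639 TPM on the sham side at day 7, ranges that overlap. Hemoglobin and other red cell genes reached 131858 TPM in the denervated sample of mouse 1 at day 7, against 42337 TPM or less elsewhere. No marker of the neutrophil, fibroblast, muscle or red cell lists was at 0 in every sample of a group.

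The next question was whether the side difference itself changed with time. For Cd68 it was larger at day 3 than at day 1 by 1.24 (SE 0.58) and larger at day 7 than at day 1 by 0.95 (SE 0.58), with adjusted p of 0.54 and 0.79 by limma. Lyz2 had the largest gap between days 7 and 1, at 1.55 (SE 0.85, adjusted p = 0.76), followed by Adgre1 at 1.4 (SE 0.63, adjusted p = 0.69). None of the 10 markers passed for days 1 and 3, where 18 of all 14757 genes or 0.122% did and 1360 had an unadjusted p under 0.05. None passed for days 1 and 7 (24 genes or 0.163% passed, 1054 at an unadjusted p under 0.05), and none for days 3 and 7 (0 genes or 0.0% passed, 1013 at an unadjusted p under 0.05). The median of the 10 differences between days 1 and 7 was 0.90 beside 0.03 over all genes.

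On the denervated side Cd68 rose between days 1 and 3, from 17.2, 25.4 and 20.4 TPM to 90.1, 47.1 and 64.1 TPM. The fold change was 1.62 (SE 0.41, adjusted p = 0.023 by limma). It was the 1 of 10 markers that passed, beside 1522 of all 14757 genes or 10.3%. Of all genes, 3996 had an unadjusted p under 0.05 by limma in this comparison. Leaving out mouse 2 or 3 of day 1, or mouse 2 or 3 of day 3, took the count of markers to 0, and the adjusted p of Cd68 over 17 alternative settings ran from 0.012 to 0.061. Adgre1 went from 0.912, 0.836 and 1.03 TPM to 2.48, 3.77 and 3.66 TPM. Its fold change was 1.4 (SE 0.44, adjusted p = 0.058 by limma), and it passed in 3 of 16 alternative settings. All 10 markers had a positive fold change in this comparison, with a median of 0.90 beside 0.03 over all genes. On the sham side none of the 10 passed between days 1 and 3, as none of all genes did (0.0%, 1984 at an unadjusted p under 0.05), and the median of the markers was 0.56. The fold changes of the markers on the sham side were also positive, from 0.11 for Itgam and Mrc1 to 0.96 (SE 0.44) for Adgre1. Cd68 on the sham side differed by 0.38 (SE 0.41) between those days.

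Between days 3 and 7 the denervated side showed lower Cd68 values and higher values of the other 9 markers, and none passed the test. Cd68 had a fold change of -0.61 (SE 0.41, adjusted p = 0.58), while Cd163 had 1.18 (SE 0.59, adjusted p = 0.43) and Lyz2 had 1.11 (SE 0.60, adjusted p = 0.47). Of all genes tested, 44 or 0.298% passed, and 1830 had an unadjusted p under 0.05. On the sham side none of the markers and none of the 14757 genes passed between days 3 and 7 (0.0%, 1938 at an unadjusted p under 0.05), and the fold changes of the markers ran from -0.32 for Cd68 to 0.42 for Cd163. Different mice were sampled at each day, so these comparisons rest on the spread between mice.

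Within a mouse the markers moved largely as a group. In 7 of the 9 mice 9 or all of the 10 markers went in the same direction. All 10 were higher on the denervated side in mouse 1 of day 1, with a median difference of 0.52, and all 10 were lower in mouse 3 of day 1, with a median of -1.16. At day 3 the medians were -1.35, 0.12 and 1.04 in mice 1 to 3. At day 7 they were 0.58, 0.69 and 0.58. The 3 mice of day 7 were thus close to each other, and the mice of days 1 and 3 were spread on both sides of 0. Such shifts by mouse were not particular to the markers. Mast cell sums on the denervated side of day 1 were 70.5, 150 and 101 TPM, against 33.3, 281 and 189 TPM on the sham side. At day 3 they were 63.9, 192 and 316 TPM against 259, 314 and 142 TPM. Keratinocyte sums of day 3 were lower on the denervated side in all 3 mice. The share of all genes that moved this way was not counted.

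Cd68 departed from the group in several mice, a feature singled out after the values were seen and not tested. Its difference between the sides exceeded the median of the other 9 markers in 8 of 9 mice, and in 9 of 9 when only coding transcripts were summed. The gap was widest in mouse 1 of day 3, at 2.15. There Cd68 was higher on the denervated side by 0.76, and each of the other 9 markers was lower, down to -2.07 for Cd163. The ratio of Cd68 to Csf1r was 15.9 in that denervated sample, against 3.54 and 3.94 in the other denervated samples of day 3 and 1.47 to 3.23 on the sham side. At day 7 the ratio was 1.79 to 2.94 on the denervated side and 1.48 to 1.67 on the sham side. In coding transcripts alone Cd68 measured 47, 27.4 and 35.6 TPM on the denervated side of day 3 and 29.6, 14.1 and 8.98 TPM on the sham side, so it was higher in each mouse by this measure too.

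**Figure D4:**
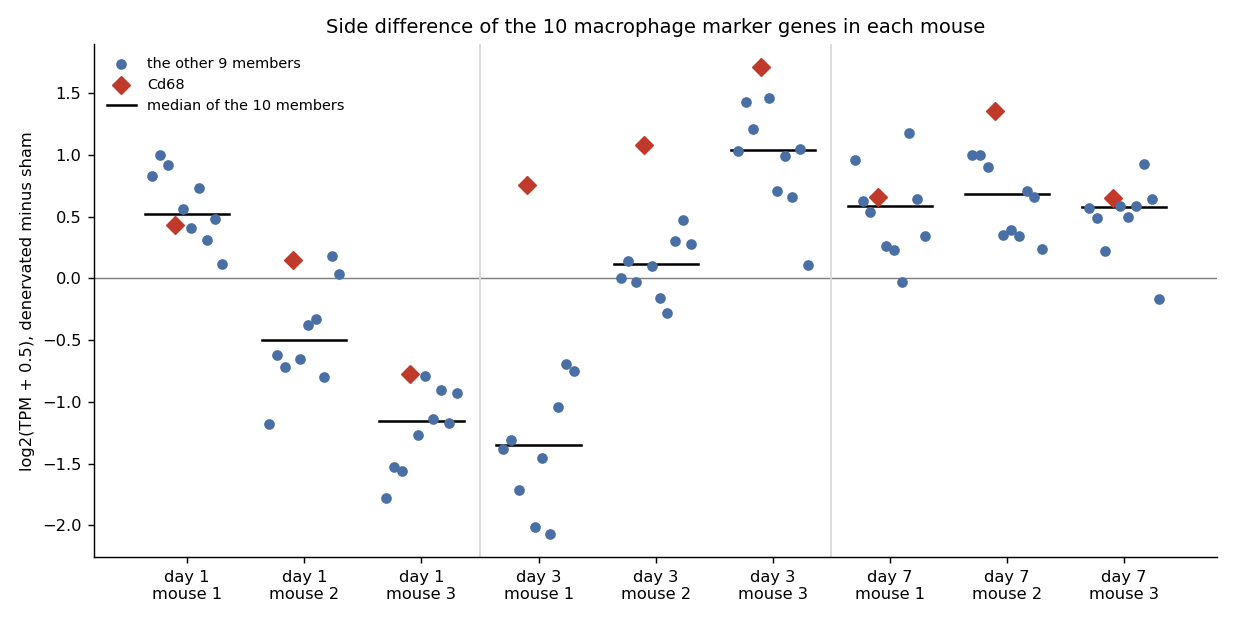
Difference between denervated and sham side in log2(TPM + 0.5) for each of the 9 mice (columns), with 1 point per marker gene, red diamonds for Cd68 and a black line at the median of the 10 genes. The medians of the day 7 mice lie at 0.58 to 0.69, those of days 1 and 3 lie on both sides of 0, and Cd68 is the highest of the 10 in 5 of 9 mice.

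Across the 18 samples the level of most markers followed that of the others. As a description over samples that share mice and days, the Pearson correlation of log2(TPM + 0.5) with the mean z-score of the other 9 markers was 0.99 for C1qb, 0.97 for Lyz2, 0.94 for Csf1r and 0.93 for C1qa. Adgre1 and Itgam had 0.91, Cd163 0.90, Mrc1 0.88 and Fcgr1 0.85. Cd68 had 0.56, and 0.36 without mouse 1 of day 1. Among the 14757 genes that passed the filter over all days, the 8 genes outside the list whose levels were most like the markers' mean z-score were Tyrobp, F13a1, C5ar1 and Ccl8 (each 0.98), Fcer1g (0.97), C1qc (0.96), Clec4a2 and Ms4a6b (each 0.95). Tyrobp and Fcer1g are signaling adaptors of myeloid receptors, C5ar1 is the receptor of complement C5a, and Ccl8 is a chemokine, which spanned 8.71 to 359 TPM over the samples. Without mouse 1 of day 1 the values of these 8 genes were 0.92 to 0.97.

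The C1q chains were close in level. C1qa, C1qc and C1qb lie next to each other on the minus strand of mouse chromosome 4 (GRCm38), at 136895917 to 136898803, 136889804 to 136893065 and 136880129 to 136886187. The ratio of C1qa to C1qb was 0.84 ± 0.15 (SD, n = 18) and that of C1qc to C1qb was 0.770 ± 0.0941 (SD, n = 18), with ranges of 0.577 to 1.17 and 0.614 to 0.993. C1qb itself spanned 9.83 to 117 TPM. At day 7 C1qc measured 59.9, 49.4 and 71.8 TPM on the denervated side and 47.2, 30.4 and 59.2 TPM on the sham side, higher in all 3 mice. Lyz1, a close copy of Lyz2 on chromosome 10 whose reads could in part be assigned to it, had 0.0570 to 0.208 of the TPM of Lyz2. Lyz1 had a fold change of 0.28 (SE 0.78) at day 7, where Lyz2 had 0.84.

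To place the markers in sequence, the bases before the RefSeq transcription start (GRCm38.p6) were searched on both strands for GAGGAAG, a core of the site bound by PU.1 (encoded by Spi1), the factor that defines myeloid cells, and for TGACTCA, the AP-1 site. RefSeq windows were at hand for 7 of the 10 markers. Of all 32851 windows, each searched over the 250 bases before the start, 10.6% held GAGGAAG and 4.46% held TGACTCA. Among the 7, GAGGAAG was in Fcgr1, Itgam and Mrc1, and TGACTCA was in Cd68, at 2 places. These are the marker windows with a match, shown 5′ to 3′ on the strand of the gene, each ending where the annotated gene begins or shortly before it, which cuts Mrc1 to 228 bases, with the matched letters of either strand in capitals. Cd68 is chr11:69666171-69666420 (minus strand), Itgam is chr7:128062390-128062639 (plus strand), Fcgr1 is chr3:96293970-96294219 (minus strand) and Mrc1 is chr2:14229164-14229391 (plus strand).
Cd68: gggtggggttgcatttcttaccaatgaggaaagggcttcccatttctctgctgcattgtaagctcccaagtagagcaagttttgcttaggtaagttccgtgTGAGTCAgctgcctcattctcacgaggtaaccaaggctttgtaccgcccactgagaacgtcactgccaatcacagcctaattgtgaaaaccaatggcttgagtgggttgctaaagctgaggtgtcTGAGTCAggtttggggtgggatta
Itgam: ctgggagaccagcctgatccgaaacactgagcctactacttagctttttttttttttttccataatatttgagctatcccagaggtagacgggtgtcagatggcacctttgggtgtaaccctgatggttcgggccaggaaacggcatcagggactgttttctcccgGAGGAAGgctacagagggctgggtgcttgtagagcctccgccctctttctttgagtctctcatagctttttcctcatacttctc
Fcgr1: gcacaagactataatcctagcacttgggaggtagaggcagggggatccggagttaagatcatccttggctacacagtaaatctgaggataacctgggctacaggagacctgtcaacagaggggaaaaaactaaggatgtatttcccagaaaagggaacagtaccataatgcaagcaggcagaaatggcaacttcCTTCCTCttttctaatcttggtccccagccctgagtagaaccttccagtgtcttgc
Mrc1: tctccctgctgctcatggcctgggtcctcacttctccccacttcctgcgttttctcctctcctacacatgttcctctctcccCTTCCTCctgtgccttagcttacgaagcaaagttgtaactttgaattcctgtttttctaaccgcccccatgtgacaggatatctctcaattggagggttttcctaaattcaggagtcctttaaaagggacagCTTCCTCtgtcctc
The matches are descriptions of letters and not of bound sites.

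Genes of the CSF1 axis and of myeloid regulation gave 1 clear result. Runx1, a Runt-family transcription factor known from blood cell formation and from denervated muscle, rose on the denervated side. It measured 39.0, 48.9 and 34.3 TPM on the denervated side of day 3 and 8.8, 8.0 and 7.77 TPM on the sham side, and 25.2, 23.0 and 22.1 TPM against 6.60, 6.26 and 5.87 TPM at day 7. The groups did not overlap at either day. Its fold change was 1.54 over all days (SE 0.20, adjusted p = 0.00029), 2.23 at day 3 (SE 0.14, adjusted p = 0.0022) and 1.83 at day 7 (SE 0.11, adjusted p = 0.0022) by limma. It was the 1 gene of 14 in its list that passed over all days, and the median of the list was 0.05. A biopsy does not show which cells held this RNA. The most abundant genes of this list, Id2 (median 92.6 TPM) and Klf4 (85.6 TPM), had fold changes of 0.08 and 0.00 over all days. Maf, a transcription factor of resident macrophages and of keratinocytes among others, fell on the denervated side between days 1 and 3 with a fold change of -0.81 (SE 0.14, adjusted p = 0.0034).

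The remaining macrophage gene lists gave no gene past the limma test over all days, at day 3 or at day 7. At day 7 an unadjusted p under 0.05 was reached by 1 of 15 resident macrophage genes, 1 of 8 monocyte genes, 4 of 17 genes of phagocytosis and signaling and 5 of 11 activation genes, over all days by 1 resident gene and 0 of the others, and at day 3 by 0 genes of these lists. Of all genes tested 12.3% reached it at day 7. These genes, looked up after the counts were seen, were Stab1 (-0.47) of the resident list, Thbs1 (0.74) of the monocyte list, Cd84 (0.63), Clec7a (0.79), Ctss (0.80) and Itgb2 (0.68) of phagocytosis and signaling, and Gpnmb (0.72), Hmox1 (0.69), Lgals3 (0.57), Spp1 (0.62) and Trem2 (0.79) of the activation list, with adjusted p of 0.10 to 0.41. Of the 15 resident macrophage genes 12 were tested over all days, with a median of -0.03, and 15 at day 7, with a median of 0.15. Their most abundant genes were Gas6 (median 120.0 TPM) and Cbr2 (104 TPM), which other cells of skin also express. F13a1 had a fold change of 0.75 (SE 0.51) at day 7. The monocyte list had 8 of 12 genes tested at day 7, with a median of 0.43, and was led in level by Fn1 (0.59, SE 0.34) and Thbs1 (0.74, SE 0.26). Of the 18 genes of phagocytosis and signaling 17 were tested at day 7, 16 of them with a positive fold change, beside 56.1% of all genes tested, and the median was 0.48. They included Tyrobp (0.52, SE 0.33), Fcer1g (0.49, SE 0.24) and Axl (0.13, SE 0.13), the last of which was the most abundant and is a receptor for Gas6. The activation list had 11 of 15 tested at day 7, with a median of 0.06, and was led in level by Apoe (median 1690 TPM, fold change -0.03) and Fabp5 (1040 TPM, -0.18), both of which are also made in epidermis. On the denervated side between days 1 and 3 Arg1, an arginine-degrading enzyme of repair-associated macrophages and of keratinocytes, fell by 1.00 (adjusted p = 0.010), Fabp5 fell by 1.01 (adjusted p = 0.041), and Cd209f, a lectin of resident macrophages, rose by 2.35 (adjusted p = 0.040) by limma. On the sham side between the same days Cd209f had a fold change of 2.04 (SE 0.68, adjusted p = 0.21), Arg1 -0.18 and Fabp5 -0.21.

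Lists of other cells were measured beside the markers. In the muscle list (led by Tnnt3 and Atp2a1) Eno3, the muscle enolase, fell by 1.15 at day 3 and by 1.10 at day 7, and Ckm, the muscle creatine kinase, fell by 1.12 at day 7, with adjusted p of 0.039, 0.048 and 0.010 by limma. The rest of the muscle list did not pass and went both ways. At day 7 Mb (0.47), Myh1 (0.39), Acta1 (0.37) and Tnnt3 (0.23) were higher on the denervated side. Atp2a1 (-0.67), Pygm (-0.54), Mylpf (-0.38) and Myh4 (-0.12) were lower. At day 3 the rest ran from -0.56 for Myh4 to 0.16 for Acta1. The Schwann cell list had a median of -0.73 at day 7 with 0 of 5 genes past the limma test and 3 at an unadjusted p under 0.05. In the neutrophil list S100a8 passed over all days and at day 7 (4.33, SE 0.51, adjusted p = 0.012), and S100a9 did not (3.42, SE 1.53, adjusted p = 0.44). No gene passed the limma test at day 7 in the lists of dendritic and Langerhans cells (led by Mfge8 and Epcam, 0 of 5 tested, 1 at an unadjusted p under 0.05), lymphocytes (Cd3g and Nkg7, 0 of 6, 0), mast cells (Mcpt4 and Tpsb2, 0 of 7, 0), keratinocytes (Krt5 and Krt14, 0 of 9, 2), fibroblasts (Dcn and Col3a1, 0 of 6, 2), endothelium (Pecam1 and Emcn, 0 of 5, 0) and red cells (Hbb-bs and Hba-a1, 0 of 4, 0). Between days 1 and 3 of the denervated side the endothelial genes Kdr (1.17) and Tie1 (0.98) and the dendritic cell factor Zbtb46 (0.70) rose, and Krt14 (-0.79) and Epcam (-0.53) fell. On the sham side Kdr (1.12, adjusted p = 0.079) and Tie1 (1.01, adjusted p = 0.095) had fold changes of about the same size, beside 0.33 for Zbtb46, -0.37 for Krt14 and -0.04 for Epcam. These are single genes named by rule and do not describe their lists, whose other genes are not given for this comparison. Of all genes tested, 10.3% passed the limma test between days 1 and 3 of the denervated side.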

How the data were processed

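RNA-seq was run on skin and muscle from both whisker pads of 9 mice (18 samples). Per the labels and the study's methods the libraries were made with the Illumina TruSeq v2 kit, demultiplexed with bcl2fastq 2.17.1.14, quantified by transcript with kallisto 0.43.1 on GRCm38 and analyzed with sleuth. The deposited values are TPM per transcript that the authors also normalized between samples, so they were treated as a signal and not as counts. They sum to 833186 to 1143839 per sample. The table holds no counts. Steps between low values of single-transcript genes gave an estimated depth of 10200000 to 31800000 reads, with 72.3% to 84.0% of those values within 0.1 of a whole number, and this estimate was used in no test. Its precision limits Fcgr1 most, with an estimated 6 to 59 reads per sample.

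Groups came from the labels, which call the sides intact and lesioned. The study's methods state that the intact side had the sham incision. The table columns of day 7 differ in name from the sample titles and were matched by day, side and library index. Transcripts (113194, of which 98.46% matched GENCODE) were summed to 35150 genes. The moderated test of limma 3.58.1 in R 4.3.3, with a mean-variance trend, was run on log2(TPM + 0.5) over all genes that reached a TPM of 1 in no fewer than 47% of the samples compared, with Benjamini-Hochberg adjustment over all genes tested and a threshold of 0.05. Models held day and side (18 samples), side alone (the 6 samples of a day), or group means (interactions and days). A log2 fold change on this scale understates changes of low genes. Within-mouse differences were also tested by an exact sign-flip permutation over 9 mice. The fits were also run on simulated data, which were drawn without any correlation between the sides of a mouse and so cannot speak to pairing. The sides of a mouse come from the same animal, and the deviations of its samples from their group means correlated at 0.16 to 0.57, so mouse as a block was the paired alternative. Other alternatives were the pseudocount, the filter, 2 rescalings, coding transcripts only, no trend, and leaving out each mouse.

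The members and gene lists were chosen with earlier results of these data known. Genes outside the 10 were named if they were in a list and passed a counted test, were the 2 most abundant of a list, were Lyz1 or C1qc, or were the 8 most correlated with the markers. Some genes that this rule names are not reported here. Promoter windows came from RefSeq (GRCm38.p6).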

Additional observations from a re-analysis of the deposited data

Results flagged for a closer look

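Groups of 3 samples were too small for a check of single samples, so results were looked at again only where the side difference changed between days. Runx1 differed more between the sides at day 3 than at day 1 by 1.68 (SE 0.23, adjusted p = 0.0047 by limma) and at day 7 than at day 1 by 1.27 (SE 0.23, adjusted p = 0.037). At day 1 it measured 10.8, 14.4 and 10.9 TPM on the denervated side and 10.2, 7.65 and 6.48 TPM on the sham side. None of the 10 macrophage markers passed the test of such a change between days. The estimates of Lyz2 and Adgre1 for days 1 and 7 were larger than that of Runx1, but so were their SEs.

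In 4 others of the 58 genes named by rule every mouse of a day had a side difference opposite in sign to every mouse of another day, a pattern that was not tested in itself and that 12% of all 14757 genes tested over all days showed for some pair of days. The mean difference of Arg1 changed by -0.68 from day 1 to day 7, from 0.45 to -0.22. That of Maf changed by -0.75 from day 1 to day 3, from 0.40 to -0.35. Epcam changed by -0.50 from day 1 to day 3 and by 0.45 from day 3 to day 7. Klf4 changed by 0.66 from day 3 to day 7, from -0.29 to 0.37.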

How the results depend on the processing

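The count of markers past the threshold changed in 2 comparisons. In the paired fit with the mouse as a block it was 1 at day 7 (Lyz2) in place of 0, and the block changed the count of markers in no other comparison. Between days 1 and 3 of the denervated side the count was 2 with a pseudocount of 0.1, and 0 to 2 when a mouse was left out, with 1 in the reported fit. Of 543 refits of single markers for the side difference, 505 kept the direction and the side of the threshold, 1 passed it, and 37 changed sign. No marker had passed in the reported fits of the side difference, so a sign change could not affect a result past the threshold.

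With 1 mouse left out, the fold change over all days ran from -0.16 to 0.11 for Csf1r, -0.27 to 0.11 for Cd163, -0.26 to 0.18 for Mrc1, -0.13 to 0.23 for Lyz2, -0.12 to 0.03 for Fcgr1, -0.18 to 0.18 for C1qa and -0.02 to 0.34 for C1qb. At day 1 it ran from -0.31 to 0.29 for Cd68, -0.58 to 0.02 for Csf1r, -0.73 to 0.20 for Cd163, -0.50 to 0.33 for Itgam, -1.14 to 0.10 for C1qa and -1.07 to 0.19 for C1qb, with each upper value reached without mouse 3. At day 3 it ran from -0.37 to 0.48 for Adgre1, -0.81 to 0.27 for Csf1r, -1.18 to 0.35 for Cd163, -0.96 to 0.78 for Mrc1, -0.11 to 0.76 for Itgam, -0.69 to 0.52 for Lyz2, -0.32 to 0.19 for Fcgr1, -0.87 to 0.59 for C1qa and -0.58 to 0.78 for C1qb, with each upper value reached without mouse 1. Lyz2 over all days was -0.01 under both rescalings. Coding transcripts alone gave 0.06 for Fcgr1 at day 3, and 0.10 for Fcgr1 and 0.04 for Mrc1 over all days. The cause of these changes was not tested. The counts over all genes moved more than those of the markers. With 1 mouse left out they ran from 227 to 692 over all days, 0 to 4 at day 1, 0 to 133 at day 3, 1 to 127 at day 7 and 419 to 1538 between days 1 and 3 of the denervated side. Interactions gave 6 to 148 genes for days 1 and 3, 0 to 82 for days 1 and 7 and 0 to 1 for days 3 and 7. The block gave 68 genes in place of 18 for days 1 and 3, and 18 samples in 1 fit gave 29 in place of 0 at day 1. An equal sum per sample moved the median of all genes from 0.03 to -0.10 between days 1 and 3 of the denervated side. With 3 mice a day, the 95% intervals of C1qa and C1qb at days 1 and 3 held 2-fold differences in both directions.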
